A study of Mus musculus with 8 samples.

Results

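The SLC25 family of solute carriers was examined in hearts of mice with mitral regurgitation and in Sham hearts. Members were the rows of the deposited count table that map to protein-coding mouse genes whose symbol starts with Slc25a. This gave 47 genes of 33105 in the table, and 41 of them passed the low count filter and were tested. By the substrate each carrier is known to move, they were sorted into 8 transport groups, with 16 nucleotide and cofactor carriers, 1 phosphate carrier, 1 carnitine carrier, 10 amino acid carriers, 4 carboxylate carriers, 4 carriers of metals and glutathione, 3 uncoupling-protein-like carriers and 8 others.

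SLC25 proteins sit mostly in the inner mitochondrial membrane, which is impermeable to charged solutes, and move substrates between the cytosol and the matrix. In heart muscle the best known of them exchange ADP for ATP, bring in the phosphate that ATP synthase uses, pass acylcarnitines to fatty acid oxidation and, as parts of the malate-aspartate shuttle, carry the reducing equivalents of cytosolic NADH. The proteins are encoded in the nucleus and enter the inner membrane through a carrier translocase.

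The tissue was heart of C57BL/6J mice. There were 4 libraries of the Sham group and 4 of the MR group, named for surgery that causes mitral regurgitation, a backflow of blood through the mitral valve that overloads the heart with volume. The series set out to find pathways of this kind of hypertrophy and genes tied to MR. Details not given in the sources used here include the part of the heart, the time after surgery, the age and sex of the mice, and whether libraries came from separate animals. Each p-value therefore reflects only how far these libraries scatter, and some of that scatter may be technical.

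Total counts were 42291511 to 58658094 per library, so 1 count was worth 0.0167 to 0.0237 CPM (counts over the library total, scaled further by TMM factors of 0.967 to 1.019). The floor taken for a count of 0, which is 3 counts, was 0.0502 to 0.0711 CPM. These figures cover counting error only, and both ends of a fragment may have been counted, since genes with 2 reads outnumbered genes with 1 read by a factor of 2.27 to 2.82. Cardiomyocyte markers were abundant in all libraries, with summed levels of 43250 to 51130 CPM in Sham and 38940 to 45090 CPM in MR. On the first principal component (30.5% of the variance) Sham replicate 3 scored 7.2, nearer to the MR libraries (12.6 to 22.8) than to the other Sham libraries (−32.4 to −15.7). On the second component Sham replicate 1 was set off, at 31.2 against −19.3 to −6.3 in the other Sham libraries. Calls that change without either library are given with and without it.

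The 3 ADP/ATP exchangers of the family, Slc25a4, Slc25a5 and Slc25a31, are shown first by sequence, because the results compare the levels of genes that are close relatives. Each line holds 60 coding bases, 5′ to 3′, read from GENCODE M21 transcripts on GRCm38 around the 6 codons known as the nucleotide carrier signature. A search of the translated coding sequences found this signature in 3 of the 47 members, namely these 3. In the Slc25a4 line the capitals mark the 18 signature bases, and in the other lines they mark bases that differ from Slc25a4.
Slc25a4: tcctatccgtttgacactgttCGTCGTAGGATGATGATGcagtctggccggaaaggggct
Slc25a5: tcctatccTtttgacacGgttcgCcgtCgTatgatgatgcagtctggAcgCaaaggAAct
Slc25a31: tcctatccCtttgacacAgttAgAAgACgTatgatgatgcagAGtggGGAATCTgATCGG

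The Slc25a4 window lies at chr8:46207619-46208455 on the minus strand and joins exons 3 and 4 of 4. That of Slc25a5 lies at chrX:36797819-36798388 on the plus strand, again across exons 3 and 4 of 4. That of Slc25a31 lies at chr3:40722710-40724885 on the plus strand, across exons 5 and 6 of 6. Slc25a5 differed from Slc25a4 at 9 of the 60 bases, 3 of them in the signature, and Slc25a31 differed at 22, with 6 in the signature. Over their whole coding sequences Slc25a4 and Slc25a5 were identical at 77.4% of 894 aligned bases, and their longest identical run was 20 bases. No 50-base stretch of the Slc25a4 transcript occurred in a transcript of another gene. Of the 50-base stretches of Slc25a5, 46.6% also occurred in 9 other genes, all processed pseudogenes, so that its count may have been split. The highest level among those in the table was 5.05 CPM, for Gm5529. If reads with several matches were dropped, the Slc25a5 count would be too low without any pseudogene gaining reads.

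None of the 41 tested members passed an adjusted p of 0.05 between MR and Sham in the quasi-likelihood F test of edgeR, with Benjamini-Hochberg adjustment over all 16603 genes tested. The background in that test was 0.458% of genes, or 76 genes, so that a count of 0 among 41 is near it. At an unadjusted p under 0.05 there were 4 members, which is 9.8%, against 15.1% of all genes. The same count past the adjusted threshold was 1 in DESeq2 (Slc25a42) and 0 in limma-voom, where 4.59% and 2.75% of all genes passed. It was 2 in edgeR with no low count filter (3.06% of all genes) and 2 without Sham replicate 3 (5.28%).

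Fitted log2 fold changes, MR against Sham, were below 0 for 23 members and above 0 for 18, with a median of −0.029 beside 0.002 over all genes. When libraries were scaled by their totals alone, the family median was 0.016 and the median of all genes 0.046. That scaling put 53 of the genes past the threshold higher and 17 lower in MR, against 40 higher and 36 lower with TMM. The median size of the change, sign aside, was 0.088 in the family and 0.12 over all genes. That order depended on level. At 50 CPM or more the median size was 0.13 in the family and 0.087 over all genes, and under 50 CPM it was 0.085 and 0.134. All 4 MR values lay below all 4 Sham values in 2 members, Slc25a14 and Slc25a16, and above them in 0, where 3.91% and 4.19% of all genes did so. Among the 13 members that averaged at least 50 CPM, 9 (69.2%) had values below 0, as did 63.6% of all genes at that level.

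**Figure D1:**
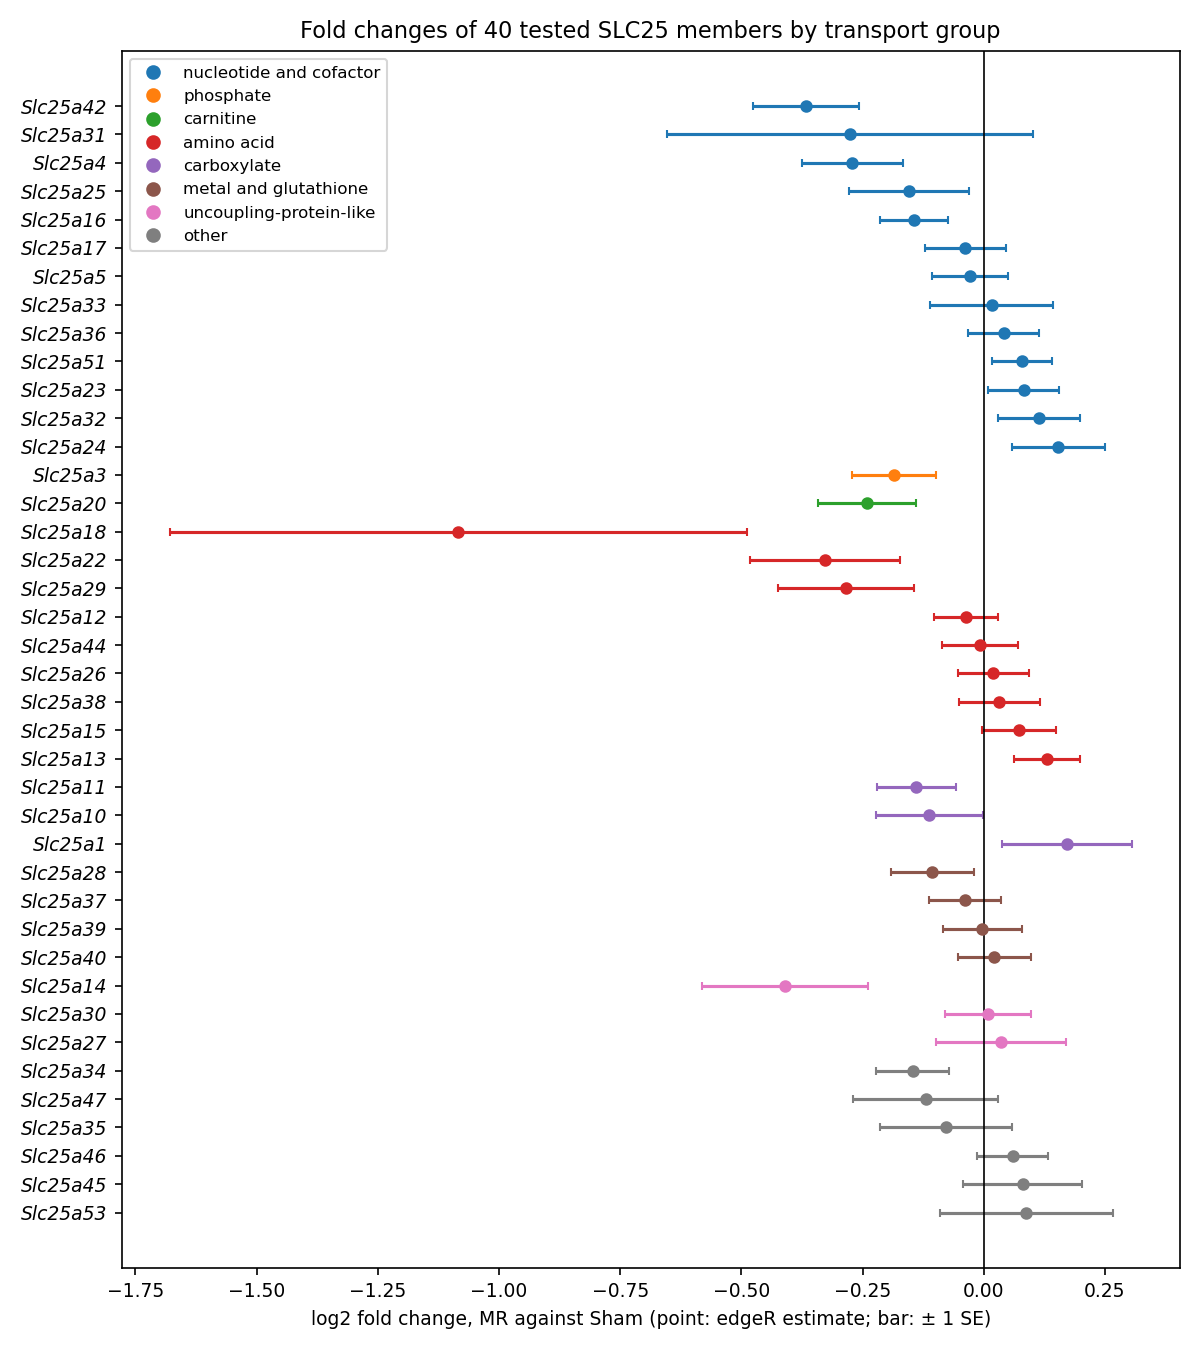
Fitted log2 fold change (x axis, MR against Sham) of 40 of the 41 tested SLC25 members (rows), coloured by transport group, with bars of ± 1 SE from edgeR. The fitted values run from −1.08 to 0.17, and Slc25a18, the lowest, has the widest bar and a level near the counting floor.

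By length-scaled level (FPKM, CPM per kilobase of a representative transcript), ADP/ATP exchange and phosphate import made up most of the family's transcript. Slc25a4 held 53.9% ± 1.83 of the summed family FPKM in Sham and 51.6% ± 0.937 in MR (SD, n = 4). In order of replicate number, as for all values per library given here, its shares were 55.3, 53.2, 51.6 and 55.4% in Sham, and in MR they were 51.7, 52.55, 50.3 and 51.8%. The groups overlapped, because Sham replicate 3 lay within the MR range. Slc25a3 held 22.8% ± 0.196 and 23.1% ± 0.335, and Slc25a11, which exchanges oxoglutarate for malate, held 5.85% ± 0.281 and 6.11% ± 0.140. Slc25a5 held 4.48% ± 0.355 in Sham and 5.03% ± 0.209 in MR, and Slc25a20 held 2.85% ± 0.109 and 2.78% ± 0.306. The Slc25a5 share may be too low, given the stretches it shares with pseudogenes. All nucleotide and cofactor carriers together held 61.1% ± 1.21 and 59.6% ± 0.810, and all amino acid carriers 3.42% ± 0.360 and 3.94% ± 0.189. These shares were not tested and depend on the length used, since with the union of all annotated exons Slc25a4 held 65.5% and 62.9%, and Slc25a3 9.715 to 10.24% in single libraries.

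**Figure D2:**
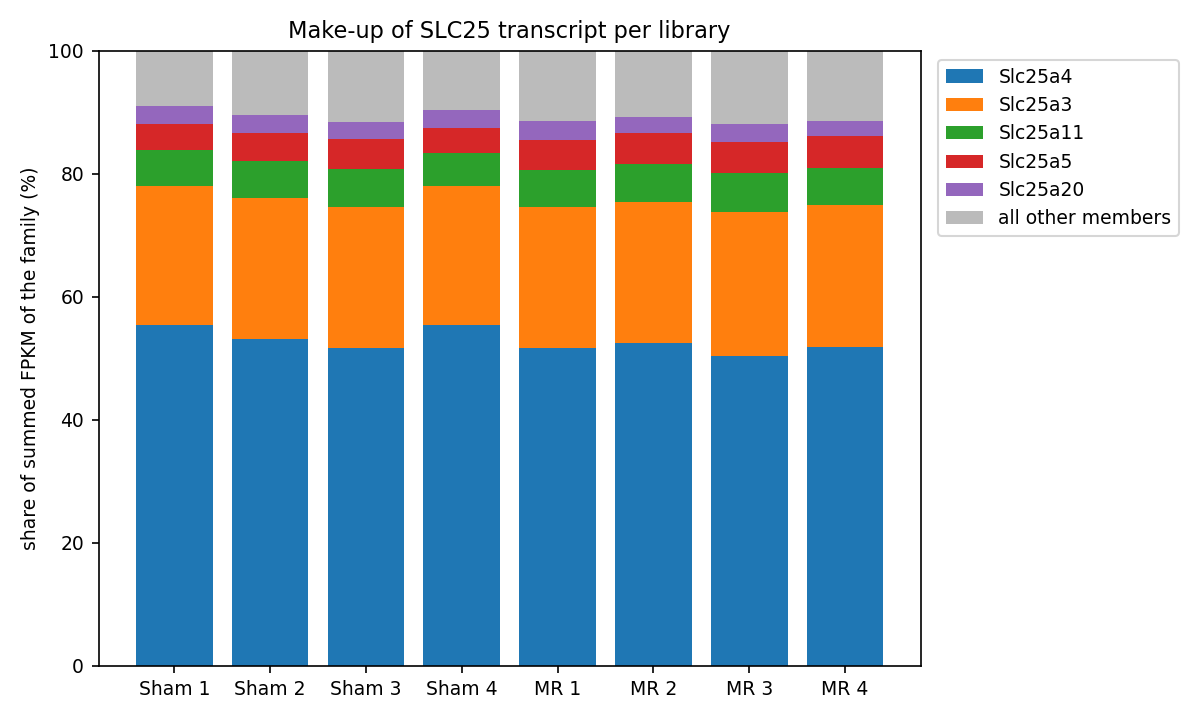
Share of the summed SLC25 FPKM (y axis, percent) held by the 5 members with the largest shares and by all other members, in each of the 8 libraries. Slc25a4 runs from 50.3 to 55.4% and Slc25a3 from 22.6 to 23.5%.

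Of the nucleotide and cofactor carriers, 14 of 16 were tested and 0 passed the adjusted threshold, with 7 fitted values below 0, 7 above and a median of −0.011. Slc25a4 (chr8:46206797-46211284, minus strand), the ADP/ATP exchanger ANT1 of heart and muscle, was the most abundant member. It stood at 5112, 4132, 3603 and 4641 CPM in Sham and at 3742, 3865, 3234 and 3652 CPM in MR. The groups overlapped through Sham replicate 3 alone, which lay below 3 of the MR libraries. The means were 4372 ± 650.4 and 3623 ± 274 CPM (SD, n = 4), a log2 fold change of −0.27 (SE 0.10, edgeR adjusted p = 0.232). Without Sham replicate 3 the change was −0.36 and passed (edgeR adjusted p = 0.0402), but leaving out the lowest Sham value widens the difference by construction. Over the fits that leave out 1 library each, the change ran from −0.36 to −0.19 and the edgeR adjusted p from 0.0402 to 0.508. Slc25a4 passed in 1 of the 16 alternatives. In bulk tissue, fewer cells of a type and less RNA per cell cannot be told apart. Of the 6 cardiomyocyte markers, 5 had fitted values below 0, beside 63.6% of all genes at 50 CPM or more, and 0 passed. An unadjusted edgeR p under 0.05 was reached by 4 of the 6 (66.7%), beside 19.1% of all genes at 50 CPM or more. In 2 of them, Myl2 and Myh6, all MR values lay below all Sham values, as in 191 of the 2822 genes at that level. The median of the 6 was −0.29. Tnnt2 was at −0.36, Tnni3 at −0.33, Myl2 at −0.30, Myh6 at −0.28, Ryr2 at −0.058 and Actc1 at 0.175. Their part in the Slc25a4 values was not tested.

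Slc25a5, which encodes the more widely expressed exchanger ANT2, did not pass either. It stood at 259, 227, 222 and 221 CPM in Sham and at 222, 241, 208 and 239 CPM in MR, with the groups overlapping and Sham replicate 1 highest. Its log2 fold change was −0.029 (SE 0.078, edgeR adjusted p = 0.905). Slc25a31, the germ cell exchanger ANT4, was low at 0.256 to 0.843 CPM over all libraries, though above the floor of 3 counts. Its log2 fold change was −0.28 (SE 0.38, edgeR adjusted p = 0.780).

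The lowest p of the family belonged to Slc25a42 (chr8:70184340-70212305, minus strand), which carries coenzyme A into the matrix. It stood at 77.6, 72.1, 61.0 and 83.0 CPM in Sham and at 66.4, 53.9, 47.6 and 59.9 CPM in MR. Only Sham replicate 3 and MR replicate 1 kept the groups from separating. The means were 73.4 ± 9.40 and 56.9 ± 8.04 CPM (SD, n = 4), a log2 fold change of −0.37 (SE 0.11, edgeR adjusted p = 0.133). The call depended on the settings. The adjusted p was 0.0472 in DESeq2, 0.000588 in edgeR with no low count filter and 0.0219 in edgeR without Sham replicate 3. That replicate held the lowest Sham value, so leaving it out widens the difference by construction. Over the 16 alternatives the adjusted p ran from 0.000588 to 0.362, and the sign stayed negative in all of them.

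Slc25a16, a candidate carrier of the coenzyme A pathway, stood at 40.9, 43.9, 40.6 and 40.1 CPM in Sham and at 40.1, 34.5, 39.5 and 35.8 CPM in MR. All MR values were lower than all Sham values, but the nearest libraries stood at 40.14 and 40.07 CPM. The log2 fold change was −0.14 (SE 0.070, edgeR adjusted p = 0.357).

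Slc25a51, the mitochondrial NAD carrier, stood at 78.8, 74.05, 75.6 and 78.2 CPM in Sham and at 83.3, 76.9, 79.0 and 84.5 CPM in MR. The ranges overlapped, and the log2 fold change was 0.078 (SE 0.062, edgeR adjusted p = 0.600). Slc25a36, a pyrimidine nucleotide carrier, stood at 48.0, 58.1, 55.6 and 49.5 CPM in Sham and at 52.2, 55.55, 54.25 and 55.4 CPM in MR. The MR values all fell inside the Sham range, and the log2 fold change was 0.041 (edgeR adjusted p = 0.835).

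Another 6 tested carriers of this group had edgeR adjusted p-values of 0.475 to 0.971. Among the calcium-regulated ATP-Mg/phosphate carriers, the log2 fold changes were 0.15 for Slc25a24, 0.082 for Slc25a23 and −0.155 for Slc25a25. The folate and FAD carrier Slc25a32 was at 0.11, the pyrimidine nucleotide carrier Slc25a33 at 0.016 and the peroxisomal cofactor carrier Slc25a17 at −0.038. These genes averaged 6.655 to 40.4 CPM in MR. Slc25a41 and Slc25a54 were not tested, at 0 in all Sham libraries and at most 0.0405 CPM in MR, under the floor of 3 counts.

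The phosphate carrier Slc25a3 (chr10:91116574-91124059, minus strand), which supplies ATP synthase with phosphate, was the member with the next highest level. It stood at 1753, 1488, 1345 and 1584 CPM in Sham and at 1380, 1410, 1267 and 1369 CPM in MR. As with Slc25a4, Sham replicate 3 alone lay among the MR values. The means were 1542 ± 171 and 1356 ± 62.3 CPM (SD, n = 4), a log2 fold change of −0.185 (SE 0.087, edgeR adjusted p = 0.335). Over the 16 alternatives the adjusted p ran from 0.0970 to 0.594, with the sign negative in all.

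The carnitine/acylcarnitine carrier Slc25a20 (chr9:108662088-108684641, plus strand), which exchanges acylcarnitine for free carnitine, stood at 241.5, 216, 179 and 217 CPM in Sham. In MR it stood at 211, 177.5, 172 and 161 CPM. Sham replicate 3 and MR replicate 1 lay within the other group's range. The means were 213 ± 25.9 and 181 ± 21.6 CPM (SD, n = 4), a log2 fold change of −0.24 (SE 0.10, edgeR adjusted p = 0.279). It passed in none of the 16 alternatives, where the lowest adjusted p was 0.0649.

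Of the amino acid carriers, 9 of 10 were tested and 0 passed, with 5 fitted values below 0, 4 above and a median of −0.008. The aspartate/glutamate carriers of the malate-aspartate shuttle, Slc25a12 (aralar) and Slc25a13 (citrin), were the most abundant of them. Slc25a12 stood at 229, 244, 219.7 and 230.2 CPM in Sham and at 231, 216, 222 and 229.7 CPM in MR, with overlapping groups and a log2 fold change of −0.037 (SE 0.066, edgeR adjusted p = 0.837). Slc25a13 stood at 176, 173, 175 and 161 CPM in Sham and at 194, 189, 193 and 173 CPM in MR. Of the MR libraries, 3 lay above the whole Sham range and MR replicate 4 lay inside it. The log2 fold change was 0.13 (SE 0.068, edgeR adjusted p = 0.392).

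The glutamate carrier Slc25a22 (chr7:141429744-141437892, minus strand) had the lowest p of the amino acid carriers. It stood at 47.4, 36.8, 32.7 and 45.5 CPM in Sham and at 38.8, 30.1, 24.2 and 36.3 CPM in MR, so that the groups overlapped widely. The log2 fold change was −0.33 (SE 0.155, edgeR adjusted p = 0.357), and it passed only with no low count filter (adjusted p = 0.0228). Slc25a29, a carrier of basic amino acids, stood at 7.80, 6.73, 5.77 and 8.47 CPM in Sham and at 5.79, 6.25, 4.695 and 6.85 CPM in MR. Its log2 fold change was −0.28 (SE 0.14, edgeR adjusted p = 0.368).

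The ornithine carrier Slc25a15 (0.073), the glycine carrier Slc25a38 (0.032), the S-adenosylmethionine carrier Slc25a26 (0.020) and the branched-chain amino acid carrier Slc25a44 (−0.008) had log2 fold changes close to 0, with edgeR adjusted p-values of 0.703 to 0.976. They averaged 17.1 to 24.1 CPM in MR. The second glutamate carrier, Slc25a18, passed the filter by a small margin, at 0.0711 to 0.540 CPM in Sham and 0.0202 to 0.232 CPM in MR. Its fitted value of −1.08 (SE 0.595, edgeR adjusted p = 0.417) rests on counts near the floor. The second ornithine carrier, Slc25a2, was not tested, at 0.0450 to 0.279 CPM over all libraries.

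**Figure D3:**
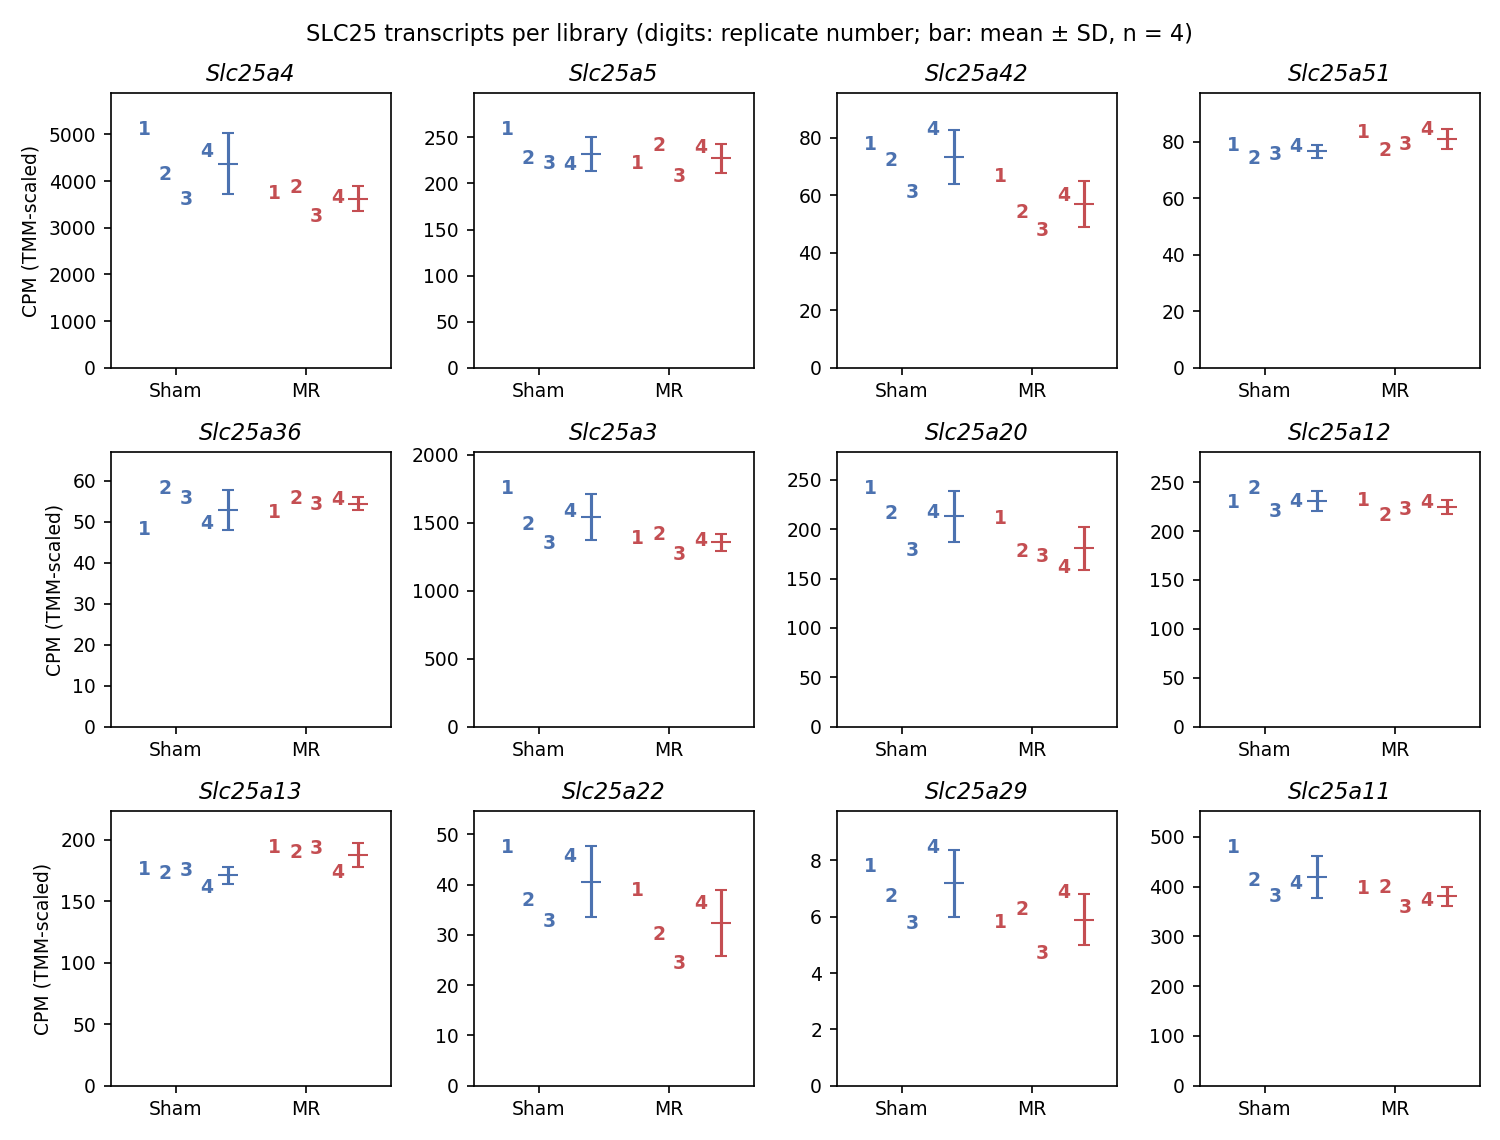
Level in CPM (y axis, from 0) of 12 SLC25 members in each library, with digits for the replicate number and bars for mean ± SD (n = 4). In the panels of Slc25a4, Slc25a3, Slc25a42 and Slc25a20, Sham replicate 3 is the lowest Sham library and overlaps the MR values.

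In the remaining groups, the lowest p was that of Slc25a14, an uncoupling-protein-like carrier (UCP5). It stood at 2.44, 2.13, 2.30 and 3.07 CPM in Sham and at 2.08, 1.95, 1.999 and 1.47 CPM in MR. All MR values lay below all Sham values, with a log2 fold change of −0.41 (SE 0.17, edgeR adjusted p = 0.279). Slc25a34 stood at 160.3, 167.6, 168.0 and 167.5 CPM in Sham and at 170.0, 142, 138 and 149 CPM in MR, and its log2 fold change was −0.147 (SE 0.075, edgeR adjusted p = 0.379). MR replicate 1 had the highest value of all 8 libraries, while the other MR libraries were lower than every Sham library.

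Slc25a11, the oxoglutarate/malate carrier of the malate-aspartate shuttle, stood at 479, 412.5, 379.6 and 407 CPM in Sham and at 396, 398, 358 and 372 CPM in MR. The groups overlapped at Sham replicate 3, and the log2 fold change was −0.14 (SE 0.082, edgeR adjusted p = 0.451). The citrate carrier Slc25a1 was at 0.17, mitoferrin-2 (Slc25a28), which imports iron, at −0.11, and the dicarboxylate carrier Slc25a10 at −0.11, with edgeR adjusted p-values of 0.595 to 0.688. The glutathione carrier Slc25a39 averaged 63.7 ± 5.97 CPM in Sham and 63.5 ± 5.505 CPM in MR, and its relative Slc25a40 averaged 14.7 ± 0.713 and 14.9 ± 0.650 CPM (SD, n = 4). Slc25a46, an outer membrane protein of mitochondrial dynamics, averaged 90.1 ± 8.31 and 93.9 ± 2.51 CPM.

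The other 7 tested members, Slc25a37, Slc25a27, Slc25a30, Slc25a35, Slc25a45, Slc25a47 and Slc25a53, had log2 fold changes from −0.12 to 0.088 and edgeR adjusted p-values of 0.756 to 0.981. Among the untested members, Slc25a43 reached at most 0.315 CPM in any library, Slc25a21 0.0901 CPM and Slc25a48 0.0432 CPM.

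Ratios between carriers of like substrate were compared within each library, as log2 ratios of FPKM, by an exact two-sided permutation test over libraries. It has 70 arrangements and a smallest possible p of 0.0286, and p-values were adjusted over the 5 ratios by Benjamini-Hochberg. None of the 5 passed. Even at that smallest p, a ratio could not pass by itself after this adjustment, so a full separation in a lone pair would go uncalled. For Slc25a4 to Slc25a5 the log2 ratio was 3.67, 3.55, 3.39 and 3.76 in Sham and 3.44, 3.37, 3.325 and 3.30 in MR, or 12.05-fold and 10.25-fold on average. The size of this ratio may be too high, because the Slc25a5 count may be too low, as described above. Every Sham library except replicate 3 lay above every MR library. The difference was −0.23 (exact permutation p = 0.0571, adjusted p = 0.214).

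For Slc25a12 to Slc25a13 the log2 ratio was −0.594 ± 0.091 in Sham and −0.761 ± 0.10 in MR (SD, n = 4). The difference was −0.17 (exact permutation p = 0.0857, adjusted p = 0.214), and MR replicate 4, at −0.616, lay inside the Sham range. For the mitoferrins Slc25a28 and Slc25a37 the difference was −0.062, for the pyrimidine carriers Slc25a33 and Slc25a36 −0.020, and for the ATP-Mg/phosphate carriers Slc25a23 and Slc25a24 −0.067. Their exact permutation p-values were 0.629, 0.943 and 0.543, with adjusted values of 0.786, 0.943 and 0.786.

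**Figure D4:**
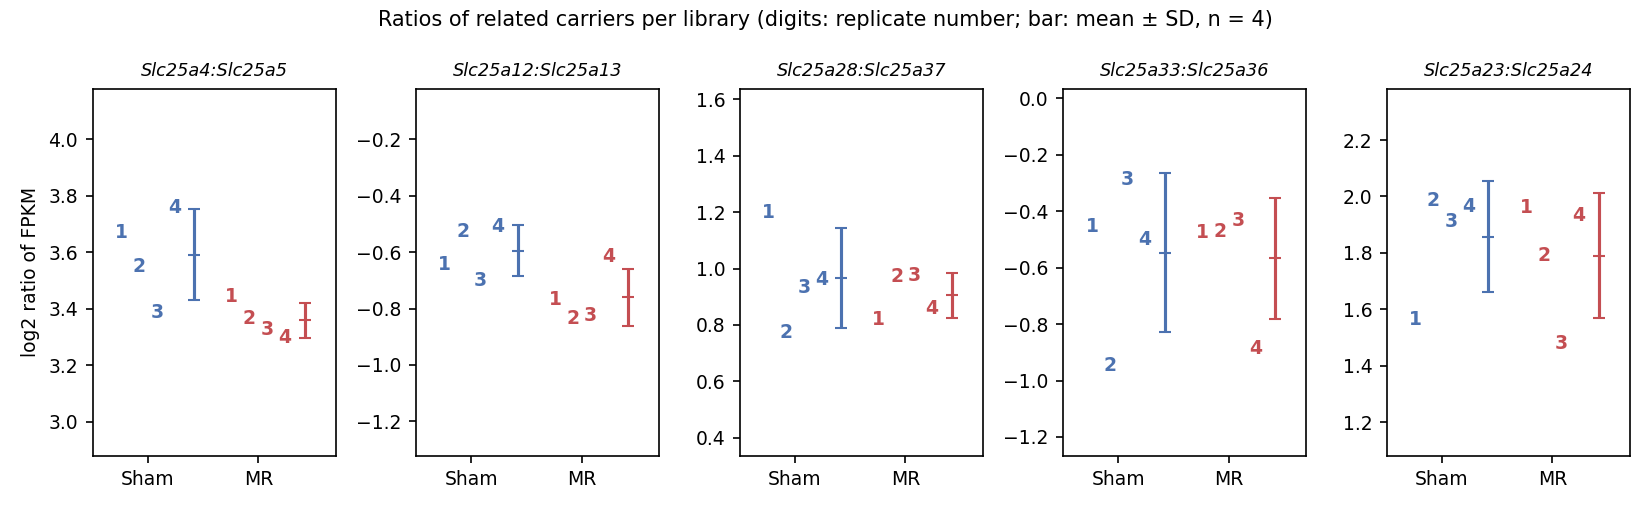
log2 ratio of FPKM (y axis, log scale, ranges differ between panels) for 5 pairs of related carriers, with digits for the replicate number and bars for mean ± SD (n = 4). In the Slc25a4 to Slc25a5 panel the Sham libraries run from 3.39 to 3.76 and the MR libraries from 3.30 to 3.44.

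Genes that work with the carriers were read from the same fit in 6 lists. None of their members passed in edgeR, against the background of 0.458%. In DESeq2 1 passed and in limma-voom 0, where 4.59% and 2.75% of all genes passed. All 17 ATP synthase genes were tested, and 16 had values below 0, with a median of −0.154. Of all genes 49.6% had values below 0, and of all genes at 50 CPM or more 63.6%. An unadjusted p under 0.05 was reached by 3 of the 17 (17.6%), near the 15.1% of all genes. The catalytic subunit gene Atp5b averaged 4844 ± 458 CPM in Sham and 4166 ± 160.4 CPM in MR (log2 fold change −0.22, edgeR adjusted p = 0.226), and the central stalk gene Atp5c1 was at −0.23 (adjusted p = 0.234). The porins Vdac1, Vdac2 and Vdac3, the outer membrane channels through which carrier substrates pass, had values of −0.14, −0.16 and −0.135, with the lowest edgeR adjusted p at 0.412.

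In the carnitine shuttle all 6 partners of Slc25a20 had values below 0, with a median of −0.19. Of all genes 49.6% had values below 0, and of all genes at 50 CPM or more 63.6%. An unadjusted edgeR p under 0.05 was reached by 3 of the 6, beside 15.1% of all genes and 19.1% of those at 50 CPM or more. The plasma membrane carnitine transporter Slc22a5 averaged 29.1 ± 2.69 CPM in Sham hearts (SD, n = 4) and 24.9 ± 1.83 CPM in MR hearts, a log2 fold change of −0.225 (edgeR adjusted p = 0.214). Cpt1b, the muscle carnitine palmitoyltransferase, was at −0.58 (SE 0.20, edgeR adjusted p = 0.206), and at −0.36 without Sham replicate 4. Its row held only 4.76 to 14.7 CPM, and a predicted gene on the same strand, Gm44502, covers the locus in GENCODE M21, so reads may have been split between them.

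The 4 enzymes of the malate-aspartate shuttle all had values below 0, with a median of −0.16. So did 63.6% of all genes at 50 CPM or more. Got1, the cytosolic aspartate aminotransferase, averaged 848 ± 99.9 CPM in Sham and 710 ± 23.4 CPM in MR (log2 fold change −0.26, edgeR adjusted p = 0.179), and its mitochondrial counterpart Got2 was at −0.15 (adjusted p = 0.348). Without Sham replicate 3, the 3 partner genes Got1, Slc22a5 and Ucp2 passed, in a fit where 5.28% of all genes did. For Got1 and Slc22a5 that replicate held the lowest Sham value, so leaving it out widens the difference by construction.

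Of 12 other inner membrane carriers and relatives, 11 were tested, 9 (81.8%) had values below 0 and the median was −0.13. Values below 0 were found in 49.6% of all genes and in 63.6% of those at 50 CPM or more. Ucp2, an uncoupling protein of the same carrier family whose symbol does not start with Slc25a, had the lowest p of all partners. It stood at 43.7, 38.7, 41.3 and 42.3 CPM in Sham and at 35.7, 33.4, 34.35 and 33.1 CPM in MR. All MR values were lower than all Sham values, with a log2 fold change of −0.28 (SE 0.065, edgeR adjusted p = 0.0697). The adjusted p was 0.00318 in DESeq2, 0.0276 in edgeR with no low count filter, 0.0420 with a length trend removed (1.37% of all genes passed there) and 0.0359 without Sham replicate 3. Ucp2 did not pass in the other alternatives. There the adjusted p was 0.0502 in limma-voom, and in edgeR 0.0680 with RLE factors, 0.106 with library totals and 0.110 without Sham replicate 2. Sfxn5, a sideroflexin, was at −0.32 (edgeR adjusted p = 0.250). All MR values lay below all Sham values in 3 of the 11 tested genes, Ucp2, Sfxn5 and its relative Sfxn4, as in 3.91% of all genes. Ucp1 was at 0 in all Sham libraries and at most 0.0465 CPM in MR, under the floor of 3 counts.

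The 10 genes of carrier import included the translocase subunit Timm22 and the receptor Tomm70a. Of the 10, 8 (80.0%) had values below 0, with a median of −0.046, beside 49.6% of all genes and 63.6% at 50 CPM or more. The small chaperones Timm8a1 and Timm13, which had the lowest p-values of this list, were at −0.25 and −0.149 with edgeR adjusted p-values of 0.430 and 0.510. Without Sham replicate 1 they were at −0.093 and −0.061.

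**Figure D5:**
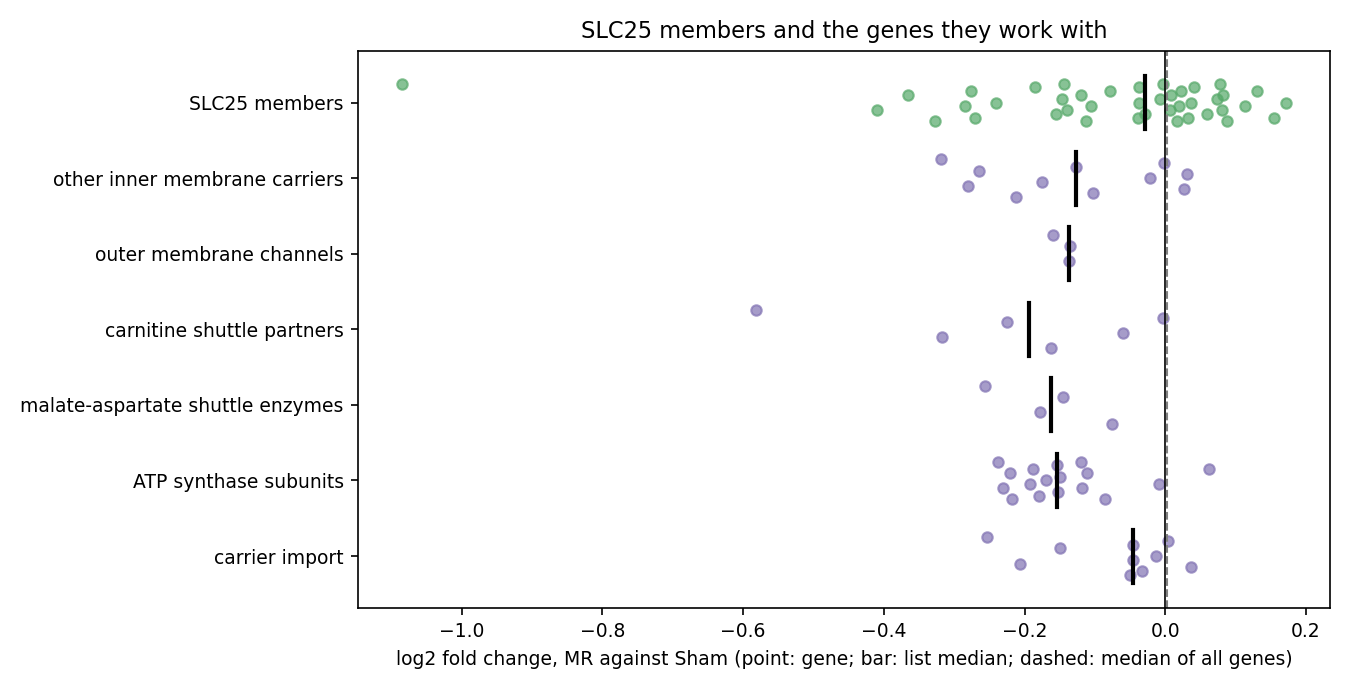
Fitted log2 fold changes (x axis, MR against Sham) of the SLC25 members and of 6 lists of genes that work with them, 1 point per tested gene, with a black bar at each list's median and a dashed line at the median of all genes. The medians run from −0.19 for the carnitine shuttle partners to −0.029 for the SLC25 members, and no point passed the adjusted threshold.

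Markers of other heart cells took several directions beside these values. Summed levels of 5 fibroblast markers were 691 to 727 CPM in Sham and 754 to 826 CPM in MR, with Col1a1 and Col1a2 higher in MR past the threshold. The other fibroblast markers did not pass, with log2 fold changes of 0.20 for Pdgfra, −0.013 for Dcn and −0.047 for Tcf21. The 4 endothelial markers summed to 522 to 660 CPM and 635 to 693 CPM, and the 4 atrial markers to 45.6 to 70.4 CPM and 93.4 to 212 CPM, most of it Nppa. The 5 macrophage markers summed to 137 to 152 CPM and 141 to 164 CPM. The 6 neutrophil markers summed to 33.3, 9.97, 5.25 and 61.3 CPM in Sham and to 2.04, 2.97, 2.84 and 1.04 CPM in MR. Of these markers 4 were tested, with log2 fold changes of −4.90 to −3.35. All 4 had an unadjusted edgeR p under 0.05, beside 15.1% of all genes, and 0 passed (lowest edgeR adjusted p = 0.0804). The 5 adipocyte markers summed to 20.99 to 25.5 CPM and 21.4 to 23.35 CPM, nearly all of it Cidea (19.7 to 25.0 CPM), while Adipoq, Plin1, Cidec and Ucp1 stayed at or under 0.737 CPM. The 5 erythroid markers summed to 558, 324, 309 and 559 CPM in Sham and to 724, 614, 531 and 376 CPM in MR, with all 5 fitted values above 0, a median of 0.41 and 0 past the threshold. Within Sham, replicates 1 and 4 were the higher libraries for the erythroid and neutrophil sums, as they were for Slc25a4. Within MR the orders differed, with the erythroid sum falling from replicate 1 to 4 and Slc25a4 highest in replicate 2, then 1, 4 and 3. The 4 smooth muscle and pericyte markers summed to 809 to 875 CPM and 860.3 to 966 CPM. Acta2 was at 0.51 and Myh11 at −0.24, with edgeR adjusted p-values of 0.127 and 0.236. The part of these markers in the carrier values was not tested.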

How the data were processed

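The authors deposited raw read counts for each Ensembl gene, in whole numbers. The submitters' processing notes name HISAT2 2.0.5 and mm10. What counted the reads, with which annotation and strand, is among the details not given in the sources used here. An mRNA kit was used on RNA taken up in TRIzol, per the labels' protocols. Symbols and lengths came from GENCODE M21 (GRCm38), which matched 32350 of 33105 identifiers.

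Groups came from the treatment labels, and replicate numbers only name libraries. Genes were filtered with filterByExpr (minimum count 10, minimum total 15), scaled by TMM and compared with edgeR 4.0.16 (quasi-likelihood F test, robust, R 4.3.3) over all 8 libraries. P-values were adjusted by Benjamini-Hochberg over 16603 genes, with a threshold of 0.05. The standard error is the log2 fold change divided by the square root of F. Ratios were tested with scipy 1.17.1. The edgeR script was checked on simulated counts.

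Alternatives were RLE factors, library totals, no filter, a filter of 1 CPM in 4 libraries, DESeq2 1.42.0, limma-voom (limma 3.58.1) with quality weights, no robust moderation, removal of a length trend, and leaving out each library. Levels between genes used the length of a representative transcript (best APPRIS tag, then longest). That choice, the union exon alternative, the split at 50 CPM and the search for shared 50-base stretches were made after the files were seen. Members and lists were chosen with earlier results of these data known. Values per library are given for tested nucleotide, phosphate, carnitine and amino acid carriers averaging at least 50 CPM or with the 2 lowest p in their group. Slc25a16 falls outside this rule and was added for its separated ranges after its values were seen. Of the remaining members the 6 with the lowest p were named, and of each partner list the 2 with the lowest p. Other members are given for completeness, except 1 that is counted in the totals and not reported here. Within groups, the 12 pairs of libraries differed by chi-square values of 13.2 to 47.0 per degree of freedom, so none was a copy of another.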

Additional observations from a re-analysis of the deposited data

Results flagged for a closer look

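In 4 of 92 groups of 4 libraries looked at, 1 library stood far from the other 3 of its group, with a gap over the whole range above the Dixon critical value of 0.829. Chance flags about 1 in 20 groups, so this number is near what chance gives. Slc25a5 was at 258.9 CPM in Sham replicate 1 and at 220.7 to 227.1 CPM in the other Sham libraries. Slc25a34 was at 160.3 CPM in Sham replicate 1 and at 167.5 to 168.0 CPM in the others. Slc25a23, a calcium-regulated ATP-Mg/phosphate carrier, was at 37.54 CPM in MR replicate 3 and at 41.06 to 41.52 CPM in the other MR libraries. The log2 ratio of the pyrimidine nucleotide carriers Slc25a33 and Slc25a36 was −0.886 in MR replicate 4 and −0.475 to −0.431 in the other MR libraries.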

How the results depend on the processing

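The number of genes past the threshold, 76 in all, was 936 with no low count filter, 688 in DESeq2, 457 in limma-voom, 227 with a length trend removed, and 3 to 887 when 1 library was left out. The number of SLC25 members past it was 2 with no filter (Slc25a22 and Slc25a42), 1 in DESeq2 (Slc25a42) and 0 to 2 with 1 library left out, the 2 being Slc25a4 and Slc25a42 without Sham replicate 3. Partner genes past it numbered 3 with no filter (Cpt1a, Cpt1b and Ucp2), 1 in DESeq2, 1 with the length trend removed (Ucp2 in both), and 0 to 3 with 1 library left out. The family's median log2 fold change was 0.016 with library totals alone and −0.047 to −0.007 with 1 library left out. The cause of these differences was not tested. Of the 41 members, 23 had the same sign in all 16 alternatives and 16 did not. The other 2, Slc25a18 and Slc25a31, dropped out under the filter of 1 CPM in 4 libraries and had the same sign in the 15 that gave a value. No ratio passed in any alternative, but a ratio could not pass by itself even with all libraries. Leaving out 1 library raises the smallest exact p to 0.0571, above the threshold, so no ratio could pass there whatever its values. The Slc25a4 share difference of −2.28 percentage points ran from −3.04 to −1.78 with 1 library left out and was −2.53 with union exon lengths. No paired analysis was possible because the titles give the groups no shared replicate numbers. Depth limits Slc25a18, Slc25a31 and the 6 untested members, all under 1 CPM.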

Other observations

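Slc25a4 and Slc25a3 shared an order of libraries, which the members next in level did not all follow. In Sham, Slc25a11 was highest in replicate 1, then 2, 4 and 3, and Slc25a5 in replicate 1, then 2, 3 and 4. Slc25a4, Slc25a3 and the summed ATP synthase genes were each highest in Sham replicate 1, then 4, 2 and 3, and within MR highest in replicate 2, then 1, 4 and 3. The ATP synthase sums were 18320, 15350, 13990 and 16230 CPM in Sham replicates 1 to 4 and 14590, 14830, 13290 and 13790 CPM in MR replicates 1 to 4. The summed SLC25 family stood at 9211, 7830, 7061 and 8409 CPM in Sham and at 7321, 7396, 6527 and 7128 CPM in MR. Among the 8 members that averaged at least 150 CPM, a limit chosen after the values were seen, Sham replicate 1 was the highest Sham library in 6 and Sham replicate 3 the lowest in 5. MR replicate 3 was the lowest MR library in 18 of all 41 tested members.

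Several members share sequence or position with other genes, which bears on their counts where strand or multiple matches were not resolved. Exons of Rangrf on the opposite strand cover 31.3% of the exon bases of Slc25a35, those of Gm13068 14.9% of Slc25a33, and those of Rnf167 8.9% of Slc25a11. Of the 50-base stretches of Slc25a36, 11.8% also occur in the pseudogene Gm13217, which reached 0.955 CPM. For Slc25a3 the share was 3.9%, with the pseudogene Gm13904 at most at 0.066 CPM.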
